A study of Homo sapiens with 4 samples.

Results

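The genes described here encode the machinery that licenses, opens and copies DNA: 50 genes, listed by symbol, of the 20263 genes in a table of RNA-seq counts from MDA-MB-231, a line of human breast cancer cells that lacks the hormone receptors and HER2 amplification. The table names genes by Ensembl ID, all 50 symbols matched 1 ID each, and all 50 were among the 13667 genes with enough counts to be tested. 2 libraries came from cells given Rib_CA for 24 h (a derivative of ribociclib, by the title of the series), and 2 from cells given DMSO, a common solvent for such compounds. All 4 were from 1 cell line, and the dose is not given in the sources used here. Ribociclib inhibits the kinases CDK4 and CDK6, so replication genes lie downstream of the kinases that the parent drug blocks.

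Eukaryotic cells copy their DNA once per cycle by separating licensing from firing. In G1 the origin recognition complex, CDC6 and CDT1 load the ring of MCM2 to MCM7 onto DNA in an inactive form. In S phase the kinases CDC7 and CDK2 turn that ring into a working helicase by adding CDC45 and the GINS complex, and polymerases, a sliding clamp and its loader then copy both strands. Many of these genes are transcribed by E2F factors, which the RB protein holds in check until CDK4 and CDK6 phosphorylate it.

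The libraries held 38865103 and 37772266 counts in Rib_CA 1 and 2 and 34774542 and 37754168 in DMSO 1 and 2. Levels are given as CPM, counts scaled to a library of 1000000 after TMM normalisation. The replication genes had between 342 and 16221 counts in a library. Over the genes counted, libraries of a group differed far beyond counting error. For some replication genes they were nearly equal, such as PCNA in Rib_CA (145 and 146 CPM) and GINS2 in DMSO (42.1 and 42.0 CPM). Transcripts of the mitochondrial genome took 5.78% and 3.13% of the counts in Rib_CA and 8.68% and 21.7% in DMSO, so that DMSO 2 stood apart. The summed level of 6 mesenchymal markers of this line (VIM, CD44, AXL, FN1, CAV1 and SPARC) was 7024 and 6338 CPM in Rib_CA and 6991 and 8052 CPM in DMSO, of which SPARC gave almost nothing. The hormone receptor and luminal markers summed to 103 and 62.0 CPM in Rib_CA and 96.96 and 96.3 CPM in DMSO, most of it from ERBB2 at 58.0 to 87.1 CPM. GATA3 had 3.04 to 21.7 CPM and FOXA1 0.488 to 7.35 CPM, both lowest in Rib_CA 2, while PGR, ESR1 and CDH1 stayed at or below 1.76, 0.663 and 0.0766 CPM. The immune and endothelial markers summed to 255 and 172 CPM in Rib_CA and 162 and 339 CPM in DMSO, nearly all of it from the lysosomal gene CD68. PTPRC, PECAM1 and CDH5 stayed at or below 0.634, 1.18 and 0.102 CPM, and what these levels contributed to the results was not tested. The T cell marker CD3E had no count. A count of 0 allows up to 3 counts, which is 0.0772 to 0.0863 CPM before TMM scaling. The proliferation marker MKI67 had 190.5 and 100.1 CPM in Rib_CA 1 and 2, against 1478 and 1518 CPM in DMSO 1 and 2, and what this contributed to the results was not tested. In bulk RNA, fewer cells in a phase and less RNA per cell cannot be told apart.

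Because E2F factors are the known link from CDK4 and CDK6 to these genes, 5 promoters are shown with the E2F-type motifs TTTCCCGC, TTTGGCGC, TTTCGCGC and TTTGCCGC, on either strand, in capitals. CLSPN and POLA1 fell, while POLA2 (the partner of POLA1) and MCM6 and MCM7 (partners in the MCM ring) were not called. Each line runs 5′ to 3′ on the gene's own strand from 250 bases before the annotated start to 20 bases after it, in RefSeq sequence of build GRCh38.p14. The windows are chr1:35769959-35770228 (reverse strand), chrX:24693668-24693937 (forward), chr11:65261712-65261981 (forward), chr2:135876424-135876693 (reverse) and chr7:100101378-100101647 (reverse).
CLSPN: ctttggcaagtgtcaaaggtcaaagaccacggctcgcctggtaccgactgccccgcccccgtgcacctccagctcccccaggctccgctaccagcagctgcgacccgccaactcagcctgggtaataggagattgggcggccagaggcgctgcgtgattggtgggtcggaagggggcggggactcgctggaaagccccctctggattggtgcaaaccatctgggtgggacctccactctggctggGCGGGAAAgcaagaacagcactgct
POLA1: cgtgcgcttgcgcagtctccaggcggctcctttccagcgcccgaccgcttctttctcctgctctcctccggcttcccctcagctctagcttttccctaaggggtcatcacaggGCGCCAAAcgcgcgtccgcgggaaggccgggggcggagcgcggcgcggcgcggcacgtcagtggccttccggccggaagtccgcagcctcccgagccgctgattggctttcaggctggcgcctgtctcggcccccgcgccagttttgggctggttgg
POLA2: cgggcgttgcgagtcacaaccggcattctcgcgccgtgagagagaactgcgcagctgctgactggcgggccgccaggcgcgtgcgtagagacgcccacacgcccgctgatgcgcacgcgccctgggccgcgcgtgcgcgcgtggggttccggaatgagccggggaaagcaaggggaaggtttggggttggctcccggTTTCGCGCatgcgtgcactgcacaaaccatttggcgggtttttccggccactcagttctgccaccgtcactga
MCM6: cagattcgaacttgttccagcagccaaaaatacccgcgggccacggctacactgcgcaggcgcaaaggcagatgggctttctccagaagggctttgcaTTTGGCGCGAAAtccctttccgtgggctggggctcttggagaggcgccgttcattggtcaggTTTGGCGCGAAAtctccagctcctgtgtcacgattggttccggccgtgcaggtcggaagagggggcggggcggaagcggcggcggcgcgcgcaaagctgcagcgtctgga
MCM7: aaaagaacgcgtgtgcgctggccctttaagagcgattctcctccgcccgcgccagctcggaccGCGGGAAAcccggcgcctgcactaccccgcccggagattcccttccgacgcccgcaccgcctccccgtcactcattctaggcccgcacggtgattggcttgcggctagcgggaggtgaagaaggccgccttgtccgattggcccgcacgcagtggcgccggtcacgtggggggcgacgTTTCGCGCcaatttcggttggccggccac
The MCM6 window holds 2 copies of a run in which TTTGGCGC and the reverse strand's TTTCGCGC overlap, CLSPN has a single match across its start, and MCM7, the only one of the 5 with more than 1 window (3), has 2 matches in the window shown and none in the others.

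RefSeq promoter windows were found for 43 of the 50 genes (not for MCM4, MCM5, GINS4, RECQL4, POLD3, RPA2 and RPA3). In windows of 250 bases before to 50 after a start, 21 of 54 windows of these genes (38.9%) held a match, against 1164 of 35116 windows of all genes (3.31%). The windows of these genes had a median GC content of 64.7%, against 58.7% for all windows, and what this contributed was not tested. A match occurred in 5 of the 9 genes that fell (ORC3, CDC7, POLA1, POLE2 and CLSPN) and in 16 of the 34 others with a window. DBF4, MCM10, RFC1 and WDHD1 fell and had none. The 5 promoters shown were picked and all hold a match, where 21 of the 43 genes did. These counts describe letters in a window and were not tested.

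In Rib_CA-treated cells 9 of the 50 replication genes fell and 0 rose at an adjusted p under 0.05 (edgeR's quasi-likelihood test, Benjamini-Hochberg adjustment over all genes tested). Of all genes tested, 5.11% were called lower, 2.01% higher and 7.13% either way. The genes that fell were the origin recognition gene ORC3, both genes of the CDC7 kinase (CDC7 and DBF4), MCM10, the polymerase genes POLA1 and POLE2, the clamp loader gene RFC1, and CLSPN and WDHD1 of the fork. They were 2.40-fold (POLE2) to 5.29-fold (CLSPN) lower. At an unadjusted p under 0.05, 16 were lower (against 14.7% of all genes tested) and 1 (RPA3) higher. The share of all genes higher at that p was not taken. DESeq2 called 12 lower and none higher, where it called 10.6% of all its genes lower and 7.23% higher. Limma-voom called 9 lower and none higher, against 4.67% and 1.57% of all genes.

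The median log2 fold change of the 50 genes was -0.26, against 0.03 over all genes tested, and single genes ran between -2.40 (CLSPN) and 0.95 (RPA3). Both Rib_CA libraries lay below both DMSO libraries for 26 of the 50 and above them for 4, where 28.4% and 30.4% of all genes tested did so. The other 20 overlapped between the groups. The fold change was negative for 36 of the 50, against 48.1% of all genes. Scaling by total counts alone, which moved the median of all genes to 0.23, left 5 of the 9 calls (ORC3, MCM10, POLA1, CLSPN and WDHD1). Without DMSO 1, 3 replication genes were called lower (0.975% of all genes), and without DMSO 2, the library rich in mitochondrial transcripts, 7 (2.53%). Without Rib_CA 1 it was 16 (11.7%) and without Rib_CA 2 12 (11.5%). ORC3, MCM10 and CLSPN were called in each of these 4 fits, while CDC7 and POLE2 were lost without either DMSO library and DBF4, POLA1, RFC1 and WDHD1 without DMSO 1. Beyond the 9, ORC1, CDC6, MCM4, MCM6, GINS2, POLD3 and TIPIN were called lower and RPA3 higher without Rib_CA 1, and ORC4, MCM6 and POLD3 lower without Rib_CA 2.

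**Figure D1:**
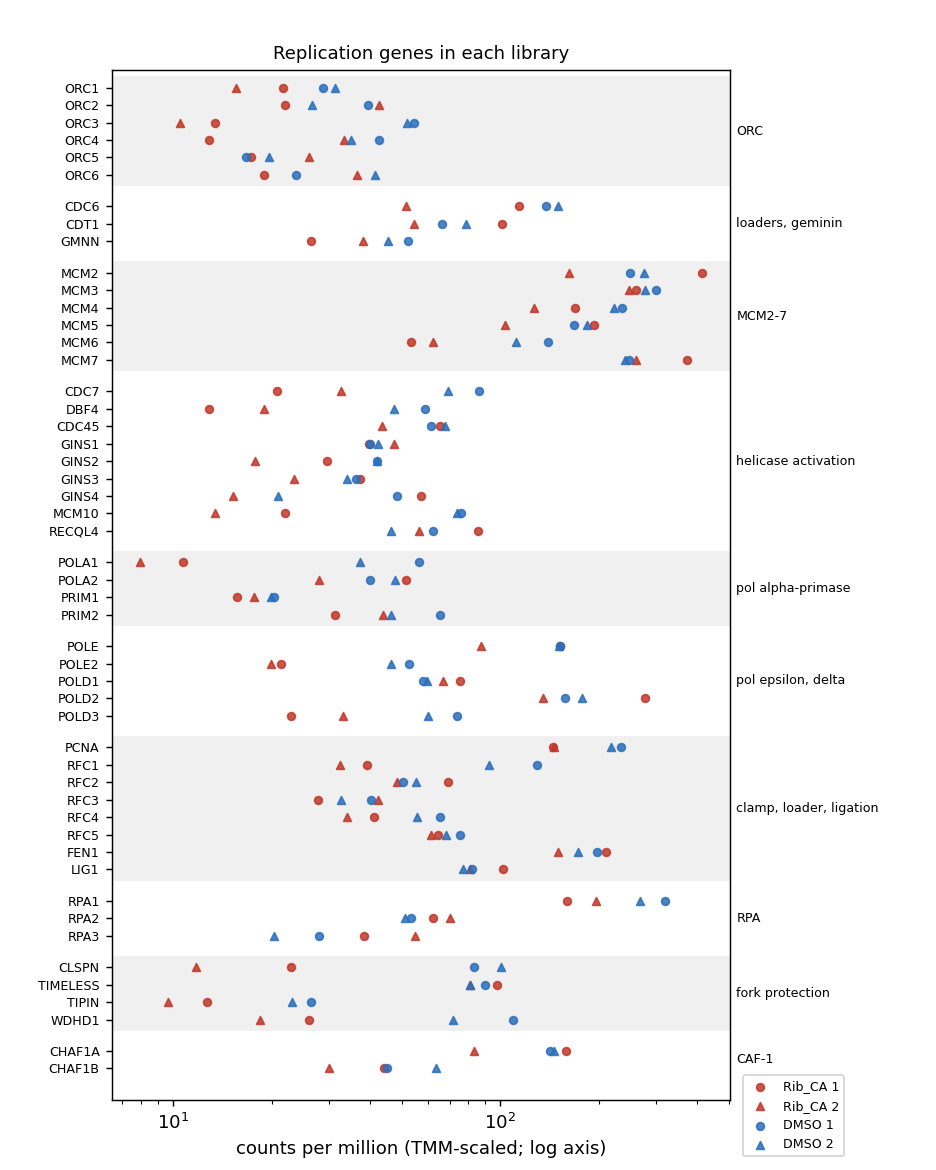
Level of each of the 50 replication genes in the 4 libraries, in CPM after TMM scaling on a log axis; red marks are Rib_CA, blue marks DMSO, circles replicate 1 and triangles replicate 2, and rows are grouped by role. The red marks of ORC3, MCM10, POLA1 and CLSPN lie far to the left of the blue ones, while those of MCM2 and POLD2 lie on both sides of them.

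The origin recognition complex marks origins and, with its partners, loads the MCM ring. Of its 6 genes, ORC3 fell and the other 5 were not called. ORC3 fell 4.45-fold (log2 fold change -2.15 ± 0.29 SE; edgeR adjusted p = 0.0285). It had 13.4 and 10.5 CPM in Rib_CA 1 and 2, against 54.4 and 51.9 CPM in DMSO 1 and 2, with the Rib_CA libraries far below the DMSO libraries (mean 11.9 ± 2.05 CPM in Rib_CA and 53.1 ± 1.76 CPM in DMSO; SD, n = 2 each). ORC3 (ENSG00000135336, chromosome 6 from 87590067 to 87667453 on the forward strand; GRCh38, GENCODE 29) encodes a subunit of the complex's core. ORC1, the ATPase subunit that comes and goes with the cell cycle in human cells, had 21.6 and 15.6 CPM in Rib_CA 1 and 2, against 28.7 and 31.3 CPM in DMSO 1 and 2, with a log2 fold change of -0.69 ± 0.30 SE (edgeR adjusted p = 0.19). ORC6, which helps to load the ring, had 18.9 and 36.5 CPM in Rib_CA 1 and 2, against 23.8 and 41.5 CPM in DMSO 1 and 2, so that the groups overlapped (log2 fold change -0.24). ORC4 had 12.9 and 33.3 CPM in Rib_CA 1 and 2, against 42.6 and 34.9 CPM in DMSO 1 and 2. The 2 Rib_CA libraries of ORC4 differed more from each other than the DMSO libraries did, and it was not called (log2 fold change -0.75 ± 0.46 SE; edgeR adjusted p = 0.333). Its log2 fold change was -1.59 (edgeR adjusted p = 0.0197) without Rib_CA 2 and -0.26 (edgeR adjusted p = 0.542) without Rib_CA 1. Repeats in the longest transcripts of ORC4 and ORC6 match other genes at 95% identity or more, so their values are uncertain. ORC2 had 22.0 and 42.6 CPM in Rib_CA 1 and 2, against 39.3 and 26.6 CPM in DMSO 1 and 2. ORC5 had 17.4 and 25.9 CPM in Rib_CA 1 and 2, against 16.7 and 19.7 CPM in DMSO 1 and 2. Both ORC2 and ORC5 overlapped between the groups, at log2 fold changes of -0.03 and 0.25. Within each library, the log2 ratio of ORC3 to the geometric mean of the other 5 genes was -0.44 and -1.47 in Rib_CA 1 and 2, against 0.93 and 0.80 in DMSO 1 and 2. This ratio does not depend on how libraries are scaled, and it was lower in both Rib_CA libraries. It was not corrected for the GC content or length of the transcripts.

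CDC6 and CDT1, which bring the MCM ring to the origin recognition complex, and GMNN, whose product geminin blocks CDT1 after firing, were not called. CDC6 had 114 and 51.7 CPM in Rib_CA 1 and 2, against 138 and 149.7 CPM in DMSO 1 and 2. Both Rib_CA libraries lay below the DMSO libraries, but they differed by more than the gap to DMSO (log2 fold change -0.79 ± 0.39 SE; edgeR adjusted p = 0.241). The log2 fold change of CDC6 was -1.52 (edgeR adjusted p = 0.00658) without Rib_CA 1 and -0.33 (edgeR adjusted p = 0.366) without Rib_CA 2. CDT1 had 101 and 54.4 CPM in Rib_CA 1 and 2, against 66.5 and 78.7 CPM in DMSO 1 and 2, overlapping between the groups (log2 fold change 0.10). GMNN had 26.4 and 38.0 CPM in Rib_CA 1 and 2, against 52.2 and 45.3 CPM in DMSO 1 and 2, with both Rib_CA libraries lower (log2 fold change -0.60 ± 0.30 SE; edgeR adjusted p = 0.241).

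The MCM2 to MCM7 ring is the core of the replicative helicase, in which the 6 subunits stand in equal number. None of its 6 genes was called, and their log2 fold changes ran between -1.12 (MCM6) and 0.37 (MCM7). MCM6 had 53.2 and 62.2 CPM in Rib_CA 1 and 2, against 139.7 and 112 CPM in DMSO 1 and 2. Its Rib_CA libraries lay at about the same low level, and its log2 fold change of -1.12 ± 0.27 SE (edgeR adjusted p = 0.054) missed the threshold, while DESeq2 called it (adjusted p = 0.00402). MCM4 had 169.8 and 127 CPM in Rib_CA 1 and 2, against 235 and 223 CPM in DMSO 1 and 2, with both Rib_CA libraries lower (log2 fold change -0.63 ± 0.27 SE; edgeR adjusted p = 0.189). MCM3 had 260.2 and 247 CPM in Rib_CA 1 and 2, against 300.2 and 277 CPM in DMSO 1 and 2, with both Rib_CA libraries slightly lower. MCM5 had 194 and 103 CPM in Rib_CA 1 and 2, against 168 and 184 CPM in DMSO 1 and 2. MCM2 had 414 and 163 CPM in Rib_CA 1 and 2, against 249 and 275 CPM in DMSO 1 and 2. An overlapping antisense gene, not among those counted, matches 21.4% of the longest MCM2 transcript. For MCM2 and MCM5 Rib_CA 1 lay above both DMSO libraries and Rib_CA 2 below them, so that their fold changes (log2 0.14 and -0.24) average opposite differences. MCM7, whose exons share 8.94% of their bases with AP4M1 on the opposite strand, had 372 and 260.3 CPM in Rib_CA 1 and 2, against 248 and 241 CPM in DMSO 1 and 2, with both Rib_CA libraries higher (log2 fold change 0.37 ± 0.28 SE; edgeR adjusted p = 0.428). Per kilobase of the longest transcript, MCM6 had the lowest level of the 6 in both groups, 15.4 CPM per kilobase in Rib_CA and 33.6 in DMSO, and the highest was MCM7 in Rib_CA (103) and MCM3 in DMSO (89.9). The log2 ratio of MCM6 to the geometric mean of the other 5 was -2.32 and -1.44 in Rib_CA 1 and 2, against -0.76 and -1.09 in DMSO 1 and 2.

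Turning the loaded ring into a helicase needs the CDC7 kinase with its activator DBF4, then CDC45, the 4 GINS subunits, MCM10 and RECQL4. Of these 9 genes, 3 fell and none rose. MCM10, an essential firing factor, fell 4.25-fold (log2 fold change -2.09 ± 0.33 SE; edgeR adjusted p = 0.0286). Its gene is ENSG00000065328, chromosome 10 from 13161554 to 13211104 on the forward strand. MCM10 had 21.9 and 13.4 CPM in Rib_CA 1 and 2, against 76.1 and 74.0 CPM in DMSO 1 and 2. DBF4 fell 3.34-fold (log2 fold change -1.74 ± 0.32 SE; edgeR adjusted p = 0.0325). DBF4 had 12.9 and 18.9 CPM in Rib_CA 1 and 2, against 58.8 and 47.4 CPM in DMSO 1 and 2. Its gene is ENSG00000006634, chromosome 7 from 87876216 to 87909541 on the forward strand. A processed pseudogene, DBF4P1, matches 48.7% of its longest transcript at 95% identity or more, so that some reads could fit both. CDC7 fell 2.92-fold (log2 fold change -1.55 ± 0.33 SE; edgeR adjusted p = 0.0424). CDC7 had 20.7 and 32.5 CPM in Rib_CA 1 and 2, against 86.4 and 69.2 CPM in DMSO 1 and 2. Its gene is ENSG00000097046, chromosome 1 from 91500893 to 91525764 on the forward strand. The Rib_CA libraries of MCM10, DBF4 and CDC7 all lay below both DMSO libraries. RECQL4, a helicase that acts at firing, had 85.5 and 56.4 CPM in Rib_CA 1 and 2, against 62.1 and 46.4 CPM in DMSO 1 and 2, with overlapping groups (log2 fold change 0.39 ± 0.32 SE; edgeR adjusted p = 0.465). CDC45, GINS1, GINS3 and GINS4 had log2 fold changes between -0.24 and 0.08, with overlapping groups in each. GINS2 had 29.6 and 17.7 CPM in Rib_CA 1 and 2, against 42.1 and 42.0 CPM in DMSO 1 and 2, with a log2 fold change of -0.83 ± 0.33 SE (edgeR adjusted p = 0.158). GINS4 had 57.1 and 15.3 CPM in Rib_CA 1 and 2, against 48.3 and 20.9 CPM in DMSO 1 and 2, where replicate 1 was high and replicate 2 low in both groups. An overlapping antisense gene, not among those counted, matches 21% of its longest transcript.

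Polymerase alpha-primase starts every new strand with a short RNA-DNA primer. POLA1, the catalytic polymerase subunit, fell 5.03-fold (log2 fold change -2.33 ± 0.35 SE; edgeR adjusted p = 0.0285). Its gene is ENSG00000101868, chromosome X from 24693919 to 24996986 on the forward strand. POLA1 had 10.7 and 7.94 CPM in Rib_CA 1 and 2, against 56.4 and 37.4 CPM in DMSO 1 and 2. POLA2, the B subunit, had 51.4 and 27.9 CPM in Rib_CA 1 and 2, against 40.05 and 47.8 CPM in DMSO 1 and 2, overlapping between the groups (log2 fold change -0.15 ± 0.36 SE). PRIM1 and PRIM2, the primase subunits, were not called at -0.27 and -0.57. PRIM2BP, a pseudogene, matches 60.1% of the longest PRIM2 transcript, so that the value of PRIM2 is uncertain. An overlapping protein-coding gene, not among those counted, matches 53.8% of the longest POLA2 transcript. Another matches 24.8% of that of PRIM1, so that both values are uncertain too. The log2 ratio of POLA1 to the geometric mean of the other 3 was -1.46 and -1.81 in Rib_CA 1 and 2, against 0.58 and 0.08 in DMSO 1 and 2, the largest shift of the 9 complexes compared.

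Polymerase epsilon copies the leading strand and polymerase delta the lagging strand. POLE2, the B subunit of polymerase epsilon, fell 2.40-fold (log2 fold change -1.26 ± 0.27 SE; edgeR adjusted p = 0.0432). Its gene is ENSG00000100479, chromosome 14 from 49643555 to 49688422 on the reverse strand. POLE2 had 21.4 and 19.9 CPM in Rib_CA 1 and 2, against 52.4 and 46.5 CPM in DMSO 1 and 2. The catalytic gene POLE had 152 and 87.7 CPM in Rib_CA 1 and 2, against 153 and 152 CPM in DMSO 1 and 2, where Rib_CA 1 lay between the DMSO libraries and Rib_CA 2 was low (log2 fold change -0.34 ± 0.32 SE). Of polymerase delta, POLD1 (catalytic) and POLD2 had log2 fold changes of 0.27 and 0.30, and POLD3 one of -1.26 that missed the threshold (edgeR adjusted p = 0.0571; DESeq2 adjusted p = 0.00309). POLD2 had 278 and 135 CPM in Rib_CA 1 and 2, against 157 and 177 CPM in DMSO 1 and 2, with Rib_CA on both sides of DMSO. An overlapping protein-coding gene, with 11 counts over all libraries, matches 12.1% of the longest POLD1 transcript. The log2 ratio of POLD3 to the geometric mean of POLD1 and POLD2 was -2.66 and -1.52 in Rib_CA 1 and 2, against -0.38 and -0.77 in DMSO 1 and 2, and that of POLE2 to POLE was -2.83 and -2.14 in Rib_CA 1 and 2, against -1.54 and -1.71 in DMSO 1 and 2.

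PCNA is the ring-shaped clamp that tethers polymerases, replication factor C loads it, and FEN1 and LIG1 trim and join Okazaki fragments. RFC1, the large loader subunit, fell 3.10-fold (log2 fold change -1.63 ± 0.29 SE; edgeR adjusted p = 0.0313). Its gene is ENSG00000035928, chromosome 4 from 39287456 to 39366375 on the reverse strand. RFC1 had 39.1 and 32.5 CPM in Rib_CA 1 and 2, against 129 and 92.4 CPM in DMSO 1 and 2. The 4 small loader subunits were not called: RFC2, RFC3, RFC4 and RFC5 had log2 fold changes of 0.15, -0.05, -0.69 and -0.19. RFC4 and RFC5 had both Rib_CA libraries below DMSO, and RFC2 and RFC3 overlapped. The log2 ratio of RFC1 to the geometric mean of these 4 was -0.28 and -0.49 in Rib_CA 1 and 2, against 1.20 and 0.85 in DMSO 1 and 2. PCNA had 145 and 146 CPM in Rib_CA 1 and 2, against 233 and 218 CPM in DMSO 1 and 2. Its libraries lay close together within each group, at means of 146 ± 0.830 CPM in Rib_CA and 226 ± 10.6 CPM in DMSO (SD, n = 2 each), yet its log2 fold change of -0.63 ± 0.25 SE (edgeR adjusted p = 0.153) was not called. LIG1 had 102 and 80.8 CPM in Rib_CA 1 and 2, against 81.9 and 76.8 CPM in DMSO 1 and 2, the highest log2 fold change of these 8 genes (0.21), with overlapping groups. FEN1 had a log2 fold change of -0.03, and the pseudogene FEN1P1 matches 50% of its longest transcript. RPA coats single-stranded DNA as a trimer, and its 3 genes were not called and had values of both signs. RPA3 had 38.3 and 54.8 CPM in Rib_CA 1 and 2, against 27.9 and 20.3 CPM in DMSO 1 and 2, with both Rib_CA libraries higher (log2 fold change 0.95 ± 0.32 SE; edgeR adjusted p = 0.117). RPA2 (log2 fold change 0.35 ± 0.25 SE) also had both Rib_CA libraries higher, and RPA1 (-0.72 ± 0.27 SE) both lower. The log2 ratio of RPA1 to the geometric mean of RPA2 and RPA3 was 1.71 and 1.66 in Rib_CA 1 and 2, against 3.05 and 3.06 in DMSO 1 and 2.

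Claspin (CLSPN), TIMELESS, TIPIN and WDHD1 travel with the fork, hold the helicase and polymerases together and, in the case of claspin, pass the signal of the kinase ATR to CHK1. CLSPN fell 5.29-fold (log2 fold change -2.40 ± 0.39 SE; edgeR adjusted p = 0.0288), the largest decrease of the 50 genes. Its gene is ENSG00000092853, chromosome 1 from 35720218 to 35769967 on the reverse strand. CLSPN had 23.0 and 11.7 CPM in Rib_CA 1 and 2, against 82.9 and 101 CPM in DMSO 1 and 2. Without Rib_CA 1 it was 8.09-fold lower. WDHD1, which links the helicase to polymerase alpha, fell 4.09-fold (log2 fold change -2.03 ± 0.34 SE; edgeR adjusted p = 0.0293). Its gene is ENSG00000198554, chromosome 14 from 54938950 to 55027105 on the reverse strand. WDHD1 had 26.0 and 18.4 CPM in Rib_CA 1 and 2, against 109.6 and 71.6 CPM in DMSO 1 and 2. TIPIN, the partner of TIMELESS, had 12.7 and 9.66 CPM in Rib_CA 1 and 2, against 26.4 and 23.1 CPM in DMSO 1 and 2, with both Rib_CA libraries lower (log2 fold change -1.15 ± 0.30 SE; edgeR adjusted p = 0.0697; DESeq2 adjusted p = 0.0124). TIMELESS had 97.6 and 81.1 CPM in Rib_CA 1 and 2, against 90.1 and 80.8 CPM in DMSO 1 and 2, with a log2 fold change of 0.06 ± 0.25 SE. The log2 ratio of TIPIN to TIMELESS was -2.94 and -3.07 in Rib_CA 1 and 2, against -1.77 and -1.81 in DMSO 1 and 2. Behind the fork, chromatin assembly factor 1 deposits new histones. CHAF1B had 44.1 and 29.9 CPM in Rib_CA 1 and 2, against 45.2 and 63.7 CPM in DMSO 1 and 2 (log2 fold change -0.56 ± 0.33 SE; edgeR adjusted p = 0.309). CHAF1A had 159 and 83.4 CPM in Rib_CA 1 and 2, against 142 and 146 CPM in DMSO 1 and 2 (log2 fold change -0.25 ± 0.35 SE). Neither was called.

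**Figure D2:**
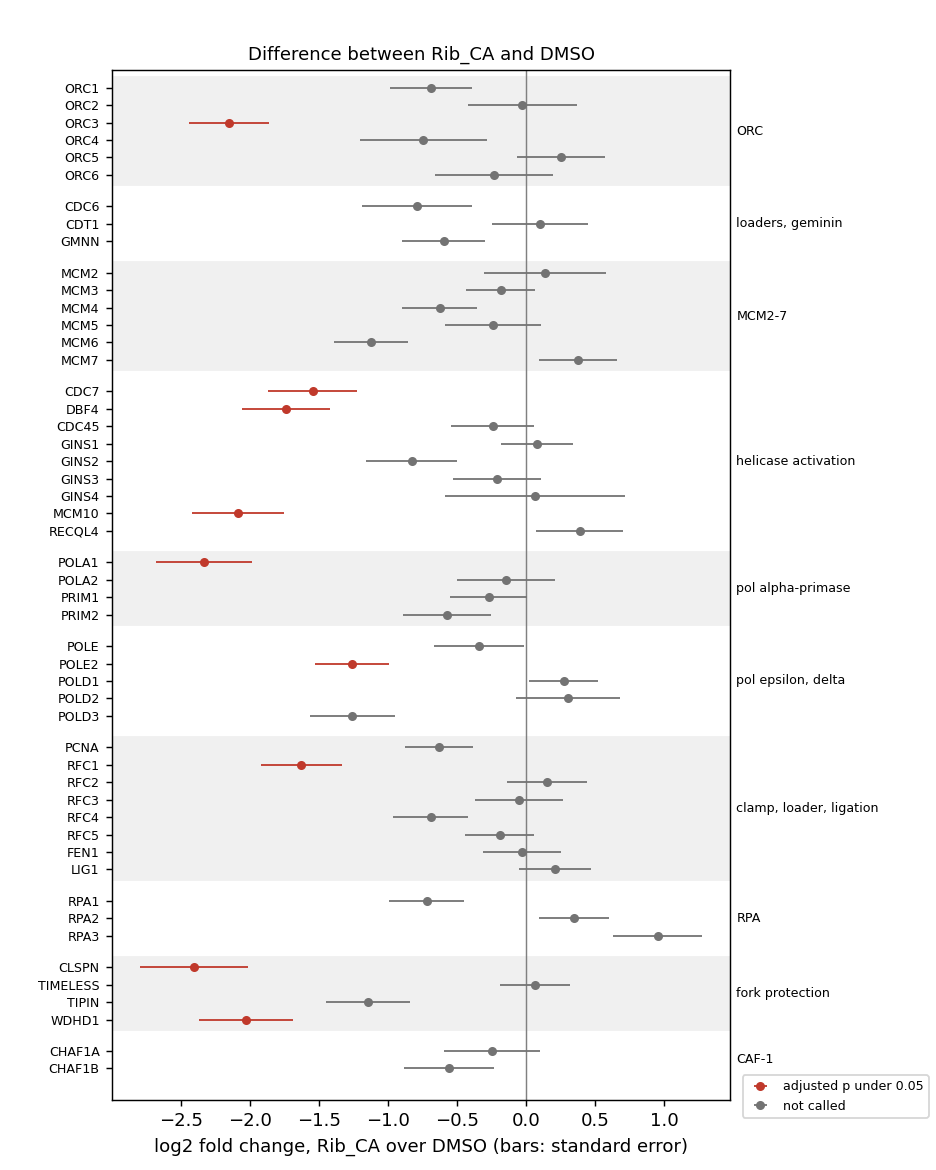
Log2 fold change of Rib_CA over DMSO for each gene, with its standard error as a bar; red marks passed the edgeR test at an adjusted p under 0.05 and grey marks did not. The 9 red marks, between -2.40 and -1.26, lie in 6 of the 10 role groups.

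Subunits of 1 complex differed from each other within libraries. For 9 complexes the subunit with the lowest fold change was set over the geometric mean of the others among the replication genes listed. This choice was made after the values were seen and without a test. POLE3 and POLE4 of polymerase epsilon and POLD4 of polymerase delta were left out. Their log2 fold changes were -1.06, 0.86 and 1.55, and ratios that include them were not taken. In all 9 the ratio was lower in both Rib_CA libraries, as the choice of subunit favours. Chromatin assembly factor 1 and the CDC7 kinase with DBF4 were not among the 9. CHAF1B and CHAF1A had log2 fold changes of -0.56 and -0.25, and CDC7 and DBF4 of -1.55 and -1.74. The shift in the mean log2 ratio was -1.97 for POLA1, -1.82 for ORC3, -1.52 for POLD3, -1.41 for RFC1 and -1.37 for RPA1. It was -1.22 for TIPIN, -0.96 for MCM6, -0.86 for POLE2 and -0.78 for GINS2. The ratios were not corrected for transcript GC content or length, along which fold changes ran over all genes. GC content was 43.0% for POLD3 against 65.0% for POLD1 and 59.1% for POLD2. POLA1 had 42.9%, against 54.5% for POLA2, 40.7% for PRIM1 and 41.6% for PRIM2. Once corrected, log2 fold changes were -0.89 for POLD3 (POLD1 -0.18, POLD2 -0.27) and -1.81 for POLA1 (POLA2 -0.41, PRIM1 -0.09, PRIM2 -0.29). What composition contributed to the ratios was not tested. With 2 against 2 libraries, the smallest two-sided p of an exact permutation test is 0.333, so none was run.

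**Figure D3:**
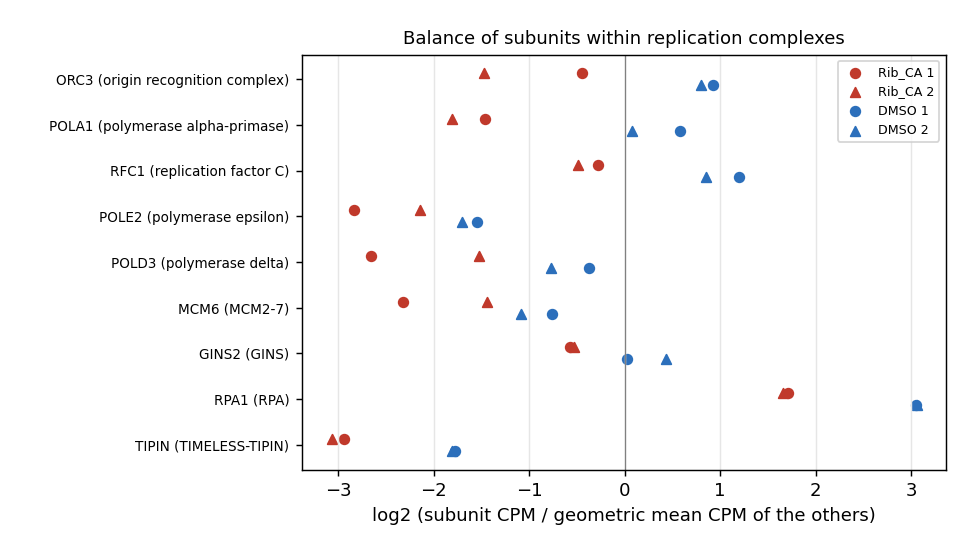
Log2 ratio of 1 subunit to the geometric mean of the other listed subunits of its complex in each library. The polymerase subunits POLE3, POLE4 and POLD4 were left out. Red marks are Rib_CA, blue marks DMSO, circles replicate 1 and triangles replicate 2. In every row the red marks lie to the left of the blue ones, by the widest margin for POLA1 and the narrowest for GINS2 in the mean. Chromatin assembly factor 1 and CDC7 with DBF4 are not shown.

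The fold changes of these genes ran along the base composition of their transcripts, as they did over all genes. Spearman's correlation coefficient between log2 fold change and the GC content of the longest transcript was 0.57 over the 50 replication genes and 0.48 over 13651 genes, and with transcript length it was -0.28 and -0.34. These are descriptions across genes that share the same 4 libraries. The 9 genes that fell had GC contents of 38.1% (WDHD1) to 44.8% (CLSPN), and none of the 28 genes at 45% or more was called. ORC3 had 39.4%, MCM10 43.3% and POLA1 42.9%, while CDT1, POLD1 and RECQL4, at 64.9%, 65.0% and 65.5%, had log2 fold changes of 0.10, 0.27 and 0.39. At a GC content under 40%, 3 of 5 replication genes were called lower, against 14.6% of all genes in that band. Between 40% and 45% it was 6 of 17, against 10.3%. The replication genes also had a lower median log2 fold change than all genes of like GC content in each of 5 bands. It was -1.55 against -0.57 under 40%, -1.12 against -0.34 from 40 to 45%, and -0.63 against -0.04 from 45 to 50%. From 50 to 55% it was -0.15 against 0.26, and at 55% or more 0.17 against 0.44. The bands hold 5 to 17 replication genes each and were set after the data were seen.

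**Figure D4:**
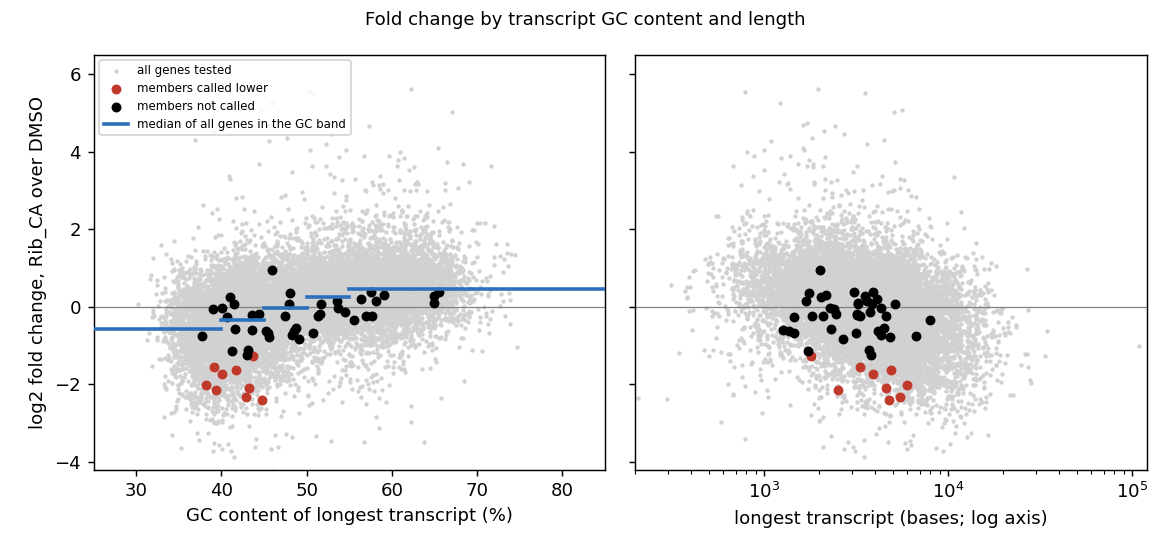
Log2 fold change of Rib_CA over DMSO against the GC content (left) and the length on a log axis (right) of the longest transcript; grey points are all genes tested within the axes, red points the 9 replication genes that fell, black points the other 41, and blue lines the median of all genes in each GC band. The red points lie at 38.1 to 44.8% GC, below the blue lines.

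Among the 50 genes, the Rib_CA libraries differed from each other along the same axis. Rib_CA 2 lay below Rib_CA 1 for 21 of the 25 genes at or above the median GC content of the 50 and for 12 of the 25 under it. Spearman's coefficient between GC content and the ratio of Rib_CA 2 to Rib_CA 1 was -0.61. The DMSO libraries also differed by GC content among these genes. DMSO 2 lay below DMSO 1 for 21 of the 25 genes under the median and for 13 of the 25 at or above it. These comparisons between libraries of a group were not made over all genes. Once transcript GC content and length had been smoothed out of each library, no replication gene and no gene of the table passed in edgeR. At an unadjusted edgeR p under 0.05, 3398 of 13651 genes then differed in either direction, a total not split by direction. There 19 replication genes were lower and 1 higher, with all 9 that had been called among the lower. Their fold changes shrank to 2.09-fold (CDC7) to 4.22-fold (CLSPN) lower, and WDHD1 moved most, to 2.36-fold. CLSPN, POLA1, ORC3 and MCM10 were 4.22-fold, 3.50-fold, 3.25-fold and 3.14-fold lower. The median of all 50 went the other way, to -0.45, where the median of all genes was 0.03. After correction 42 of 50 had a negative value, against 36 before it. The share of all genes with a negative value after correction was not taken. GC-rich genes with fold changes near or above 0 moved down: MCM2 to -0.25, MCM7 to -0.01, CDT1 to -0.41, and all 6 MCM ring genes were then negative. The correction also removes a real difference that runs along GC content or length, and what base composition contributed was not tested.

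**Figure D5:**
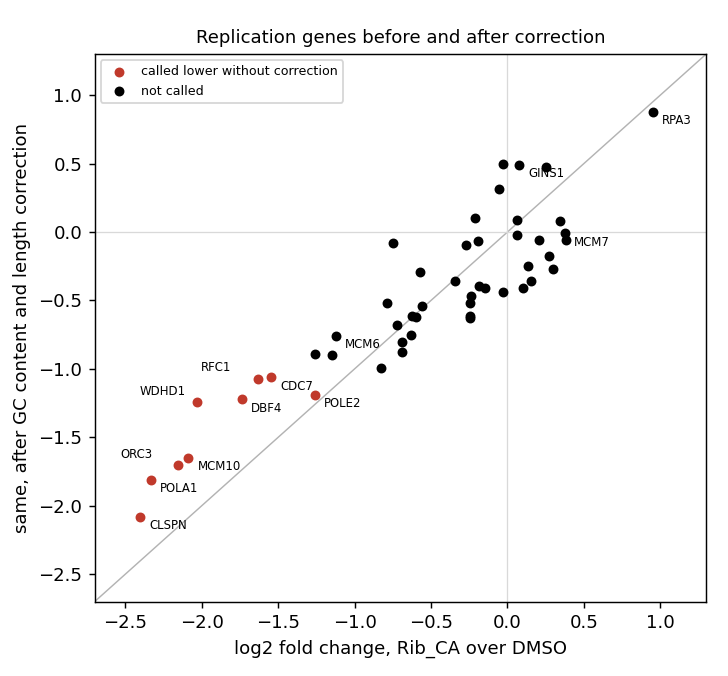
Log2 fold change of Rib_CA over DMSO for each replication gene before (horizontal axis) and after (vertical axis) correction of each library for transcript GC content and length; red points passed the test before correction, and the diagonal marks equal values. The red points move up but stay at -1.06 or lower, RPA3 stays at 0.88, and many black points move below 0.

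Outside the 50 genes, a list of 59 other genes of replication (origin firing, lagging strand synthesis, clamp unloading, fork checkpoint, chromatin and translesion synthesis) was read from the same test. 12 of 59 fell and 1 rose, with a median log2 fold change of -0.37, where 5.11% of all genes tested were called lower and 2.01% higher and their median was 0.03. ATR, the kinase of the fork checkpoint, was 4.13-fold lower, and its activators TOPBP1 and ETAA1 5.09-fold and 3.77-fold lower. TOPBP1, which is also needed for origin firing, had 29.1 and 24.2 CPM in Rib_CA 1 and 2, against 154 and 117 CPM in DMSO 1 and 2. CHEK1, the kinase to which claspin passes the signal, was not called (log2 fold change -0.73 ± 0.34 SE; edgeR adjusted p = 0.216). Of the genes that act on PCNA, ATAD5, which unloads it, was 5.49-fold lower, RAD18, a ubiquitin ligase for it, 3.46-fold and HLTF, another ligase, 3.93-fold. RIF1, which sets replication timing, was 5.25-fold lower, REV3L, the catalytic subunit of polymerase zeta, 4.12-fold, and MMS22L, of fork recovery, 3.08-fold. The cyclin gene CCNE2, whose exons overlap those of INTS8 on the other strand in 37% of their bases, was 3.74-fold lower. RECQL and MCM8 also fell, and POLD4, the smallest subunit of polymerase delta, was the 1 gene that rose, with 47.0 and 31.9 CPM in Rib_CA 1 and 2, against 10.8 and 16.1 CPM in DMSO 1 and 2 (2.93-fold; edgeR adjusted p = 0.0488). Without DMSO 1, 2 genes of the list (TOPBP1 and RIF1) were called lower, against 0.975% of all genes, and without Rib_CA 1, 19, against 11.7%. The calls of RECQL, MCM8 and POLD4 were lost without either DMSO library. ATAD5 was 9.08-fold lower without Rib_CA 1. RECQL, MCM8 and POLD4 were named after their values were seen. POLD4 shares 21.3% of its exonic bases with a read-through gene on the same strand, and RECQL 41.5% with PYROXD1 on the opposite strand. Spearman's coefficient of log2 fold change with GC content was 0.70 in this list, and none of its calls remained after the correction for GC content and length. TOPBP1 was then 3.44-fold lower, ATAD5 2.97-fold, CCNE2 2.49-fold and HLTF 2.47-fold. RAD18 was 2.27-fold lower, ATR 2.24-fold, ETAA1 2.23-fold and RIF1 2.21-fold. REV3L was 2.03-fold lower, RECQL 1.76-fold, MMS22L 1.65-fold and MCM8 1.44-fold. POLD4 had a log2 fold change of 0.94.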

How the data were processed

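The deposited table held raw counts per human Ensembl gene ID, whole numbers that the authors had not normalised, for 20263 genes in 4 libraries. RNA came from RNeasy columns and libraries from a Hieff NGS MaxUp kit for mRNA, per the labels' protocols. The builds listed in the submitters' processing notes, GRCm38 and mm10, are of the mouse, while all row IDs are human. The sources used here give no aligner, counting tool or use of strand. Of values of 1 to 10, 67.7 to 70.7% were even; whether both mates of a pair were counted was not tested, and floors cover counting error only.

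Symbols came from a table of gene names (20148 IDs matched). Positions, exonic overlaps, longest transcripts, lengths and GC contents came from GENCODE 29 (GRCh38). Near-identical copies were sought with blastn 2.17.0 at 95% identity over at least 200 bases. Exons of 14 of the 50 genes overlap another counted gene, by at most 8.94% of their bases.

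Rib_CA was tested against DMSO in R 4.3.3 with edgeR 4.0.16 (filterByExpr with a minimum count of 10 and total of 15, which left 13667 genes; TMM; glmQLFit, robust; glmQLFTest; 2 residual degrees of freedom; biological coefficient of variation 0.314), with Benjamini-Hochberg adjustment over all genes tested and a threshold of 0.05. Standard errors are the absolute log2 fold change over the root of F. The labels do not say whether libraries came from separate cultures, and p-values therefore reflect only how these samples vary, perhaps for technical reasons. The chi-square of the libraries of a group was 265 times its degrees of freedom in Rib_CA and 257 times in DMSO, far beyond counting noise.

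The genes and lists were chosen with earlier results of these data known, so no set test was run. Values in every library are given for called genes, for the ORC, MCM, CDC6, CDT1, GMNN and PCNA genes, and for the smallest p and highest fold change in each role group. Of the other pathway genes, the 10 with the smallest p among those called are named. The GC and length correction smoothed, in each library, the deviation of log2 CPM from the gene's mean (mgcv 1.9.3, 6 basis functions) and used it as an offset. DESeq2 1.42.0, limma-voom (limma 3.58.1), other scalings and filters, thinning, a replicate block and leaving out each library were alternatives. Where 1 library of a group was left out, the remaining one was taken to vary as the other group does. Promoter sequences are RefSeq's (GRCh38.p14).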

Additional observations from a re-analysis of the deposited data

How the results depend on the processing

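Of 850 values of single genes under 17 other settings, 77 changed sign, none of them for the 9 genes that fell. All 9 stayed called with DESeq2's size factors, no filter, a filter of 5 CPM in 2 libraries, thinning to 34774542 counts, limma-voom, DESeq2 and without mitochondrially encoded genes. ORC3, MCM10 and CLSPN kept their calls with any 1 library left out; CDC7 and POLE2 lost theirs without either DMSO library, and DBF4, POLA1, RFC1 and WDHD1 without DMSO 1. With 1 library left out, the number of replication genes called lower ran from 3 to 16, higher (RPA3, without Rib_CA 1) from 0 to 1, and the median from -0.64 to -0.29; for the other pathway genes lower ran from 2 to 19 and higher from 0 to 3. Total counts alone gave 5 replication genes and 7 others lower, and a median of -0.070. The GC offset, the GC and length offset and that with a replicate block called 0 in every list. The medians were -0.42, -0.45 and -0.46, against 0.03, 0.03 and 0.01 over all genes. At an unadjusted edgeR p under 0.05, the GC offset alone left 17 replication genes lower and 4 higher. Of all genes, 3652 of 13651 then differed in either direction, a total not split by direction. The replicate number as a block gave 8 replication genes lower, a median of -0.32 and 2 other genes higher. Same-numbered libraries deviated in opposite directions (r = -0.29 across 13667 genes), and with numbers crossed, a setting chosen after seeing the data, 12 fell and 1 rose, with 2 others higher. Others higher numbered 2 with no filter, 2 with DESeq2 and 0 with limma-voom. Shares of all genes called were not taken for total counts alone, no filter, the replicate block or the crossed numbers, so those counts stand without a background. The cause of these shifts was not tested.

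Log2 fold changes that changed sign, all of genes not called, were the following. Total counts alone gave ORC2 0.18, ORC6 0.018, MCM3 0.0079, POLA2 0.035, RFC3 0.15, RFC5 0.00051, FEN1 0.15. The replicate block gave MCM2 -0.013, GINS4 -0.10, the crossed block MCM2 -0.013, GINS4 -0.10 and limma-voom MCM2 -0.012, GINS4 -0.12. The GC offset gave ORC2 0.52, CDT1 -0.47, MCM2 -0.30, MCM7 -0.011, GINS3 0.18, RECQL4 -0.19, PRIM1 0.28, POLD1 -0.27, POLD2 -0.15, RFC2 -0.12, RFC3 0.54, RFC5 0.11, LIG1 -0.14, TIMELESS -0.14. The GC and length offset gave ORC2 0.50, CDT1 -0.41, MCM2 -0.25, MCM7 -0.0093, GINS3 0.10, RECQL4 -0.061, POLD1 -0.18, POLD2 -0.27, RFC2 -0.36, RFC3 0.32, LIG1 -0.059, TIMELESS -0.019. The same offset with the replicate block gave ORC2 0.48, CDT1 -0.43, MCM2 -0.34, MCM7 -0.012, GINS3 0.034, GINS4 -0.076, RECQL4 -0.050, POLD1 -0.18, POLD2 -0.32, RFC2 -0.37, RFC3 0.32, LIG1 -0.057, TIMELESS -0.016. Leaving out 1 library gave ranges of ORC2 -0.58 to 0.34, ORC5 -0.071 to 0.47, ORC6 -0.79 to 0.22, CDT1 -0.46 to 0.48, MCM2 -0.73 to 0.66, MCM5 -0.81 to 0.14, CDC45 -0.61 to 0.020, GINS1 -0.054 to 0.15, GINS3 -0.62 to 0.079, GINS4 -1.21 to 0.79, POLA2 -0.70 to 0.23, POLD2 -0.36 to 0.73, RFC2 -0.18 to 0.39, RFC3 -0.40 to 0.18, FEN1 -0.34 to 0.19, LIG1 -0.016 to 0.36, TIMELESS -0.12 to 0.19, CHAF1A -0.83 to 0.14.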
